A study of Mus musculus with 6 samples.

Results

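The genes described here are the 10 of iron uptake, iron storage and hepcidin signalling that were taken by name: Hamp, Hamp2, Trf, Tfrc, Tfr2, Fth1, Ftl1, Slc40a1, Slc11a2 and Ireb2. They were picked from the 34685 genes with a deposited symbol, out of 55536 genes with read counts. No measured value entered the rule, which takes genes by symbol, but it was set with earlier results of these data known. All 10 had reads. A filter on low counts kept 9 of them, and Hamp2, with 2 to 5 counts in 4 of the 6 libraries, did not pass it.

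The RNA came from 6 tumors grown from HCA-1, a murine hepatocellular carcinoma (HCC) line, after implantation into the liver of male C3H mice (C3H/HeNCrNarl in the methods) aged 6 to 8 weeks. The 3 control tumors (numbers 5, 6 and 7) came from untreated mice. The 3 treated tumors (numbers 1, 2 and 5) came from mice given GOx-DOX-LGP intravenously, a lipid-coated nanogel that carries glucose oxidase (GOx), an enzyme that oxidizes glucose and releases hydrogen peroxide, together with the anthracycline doxorubicin (DOX). The labels give dosing on days 18, 19 and 20 and also place the transcriptome on day 17 after 3 h of circulation, so the time from dose to RNA is not settled by them. No library came from mice given an empty nanogel, GOx alone or DOX alone, so the effects of carrier, enzyme and drug cannot be told apart. All tumors derive from the same cell line, and each library holds tumor cells together with whatever liver and blood the piece contained. The labels number the libraries but do not state how many animals stood behind each, so p-values measure only the spread between these libraries.

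Iron travels in plasma bound to transferrin, enters most cells through transferrin receptor 1, and is stored inside the ferritin shell. As an ion it leaves cells through ferroportin, the only known exporter of that form. Hepatocytes secrete hepcidin when iron stores or inflammatory signals are high, and hepcidin drives ferroportin into degradation, so the liver both stores iron and sets how much the body absorbs. Inside each cell the iron regulatory proteins bind hairpins named iron-responsive elements: a hairpin in the 5′ UTR blocks translation when iron is scarce, while hairpins in the 3′ UTR of transferrin receptor 1 protect that mRNA from decay.

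The hairpins are shown first because they tie the ferritins, ferroportin and transferrin receptor 1 to the same pair of regulatory proteins. GENCODE M21 transcripts of GRCm38 were searched on the transcribed strand for a C, then 5 bases, then the loop CAGTG with 1 further base, then 5 bases that pair with the first 5 (G with T allowed). Fth1, Ftl1 and Slc40a1 each held 1 such hairpin in the 5′ UTR, and Tfrc held 4 in the 3′ UTR. Capitals mark the 6-base loop in each 27-base run, written 5′ to 3′ in DNA letters.
Fth1, 5′ UTR: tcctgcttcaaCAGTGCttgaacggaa
Ftl1, 5′ UTR: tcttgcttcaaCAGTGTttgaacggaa
Slc40a1, 5′ UTR: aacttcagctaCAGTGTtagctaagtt
Tfrc, 3′ UTR, hairpin a: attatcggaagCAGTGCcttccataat
Tfrc, 3′ UTR, hairpin b: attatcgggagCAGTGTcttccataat
Tfrc, 3′ UTR, hairpin c: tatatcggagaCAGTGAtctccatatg
Tfrc, 3′ UTR, hairpin d: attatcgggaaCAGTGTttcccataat

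These runs lie at chr19:9982733-9982759 on the plus strand for Fth1, chr7:45459780-45459806 on the minus strand for Ftl1, and chr1:45925466-45925492 on the minus strand for Slc40a1. The Tfrc runs lie on the plus strand at chr16:32631220-32631246, chr16:32631599-32631625, chr16:32631664-32631690 and chr16:32631711-32631737. Among all annotated genes the same search matched 31 of 21200 with a 5′ UTR (0.146%) and 144 of 21193 with a 3′ UTR (0.679%). Coding regions matched in 143 of 22527 genes (0.635%) and in 0 of the 10 iron genes. A match describes letters only. The search asked for an unbroken run of pairs, so an element that departs from this pattern goes unseen. The Tfrc count is thus a count of matches. Likewise, the lack of a match in Slc11a2 or another member does not show that it holds no element. Binding was not measured, and RNA counts do not report the translation that the 5′ hairpins control.

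Sequencing gave 15529940 to 18401178 counts per library. Values are given as CPM, the counts scaled to a common library size by TMM, and 3 counts, taken as the floor of detection, equal 0.132 to 0.323 CPM. Control 5 stood apart from the other controls in its hepatocyte marker RNA. The summed level of 10 hepatocyte markers, led by albumin (Alb) and Apoa1, was 573 CPM in control 5, against 118318 in control 6 and 197020 in control 7. In GOx-DOX-LGP tumors 1, 2 and 5 it was 3108, 1222 and 1667 CPM, above control 5 and far below the other controls. Alb alone went from 353 CPM in control 5 to 73804 and 128244 in controls 6 and 7, and was 1893, 733 and 1061 CPM in the treated tumors. None of the 10 hepatocyte markers was at 0 in any library. The tumor label was checked with dividing-cell and oncofetal markers. The dividing-cell sum was 1181, 359 and 87.7 CPM in controls 5, 6 and 7, against 849 to 1109 CPM in treated tumors, with Mki67 and Top2a highest. The oncofetal sum, nearly all of it Spp1, was 6876, 511 and 222 CPM in the controls and 4612 to 6966 CPM in treated tumors, whereas the classical liver tumor markers Afp and Gpc3 were low throughout, at 2.25 to 13.2 CPM and 0.784 to 2.29 CPM. Of the 6 oncofetal markers that passed the filter, 2 had positive and 4 negative log2 fold changes (median -0.70). Afp (-1.26) and Gpc3 (-1.06) were among the negative, so the sum does not speak for the list. In bulk tumor, fewer cells of a type and less RNA per cell cannot be told apart, and this holds for every result that follows.

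Treatment was compared with control by edgeR's quasi-likelihood test, with Benjamini-Hochberg adjustment over the 15374 genes that passed the filter. Hepcidin, transferrin, transferrin receptor 2 and ferroportin were far lower in the treated tumors than in controls 6 and 7, yet 3 of those 4 genes were lower still in control 5. Hamp2 had 2 counts in control 5 and 5, 2 and 2 counts in treated tumors 1, 2 and 5, too few to order them. Slc11a2 and Ireb2 were lower in every treated tumor than in every control, by smaller amounts, and Tfrc was too, narrowly, under TMM scaling and DESeq2 size factors but not under library totals. Fth1 was higher in every treated tumor. None of the 9 tested members passed an adjusted p of 0.05 (smallest 0.247), and neither did any other gene, so that the called share was 0% for members and background alike. At an unadjusted p under 0.05, 6 members were lower and 0 higher, against 14.6% and 2.87% of all genes, and across all genes 2685 reached that unadjusted level and DESeq2 called 1739. The groups did not overlap for 1 member with higher values and 3 with lower values in treated tumors, against 8.87% and 8.31% of all genes. The members' median log2 fold change was -1.13, beside 0.02 over all genes.

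**Figure D1:**
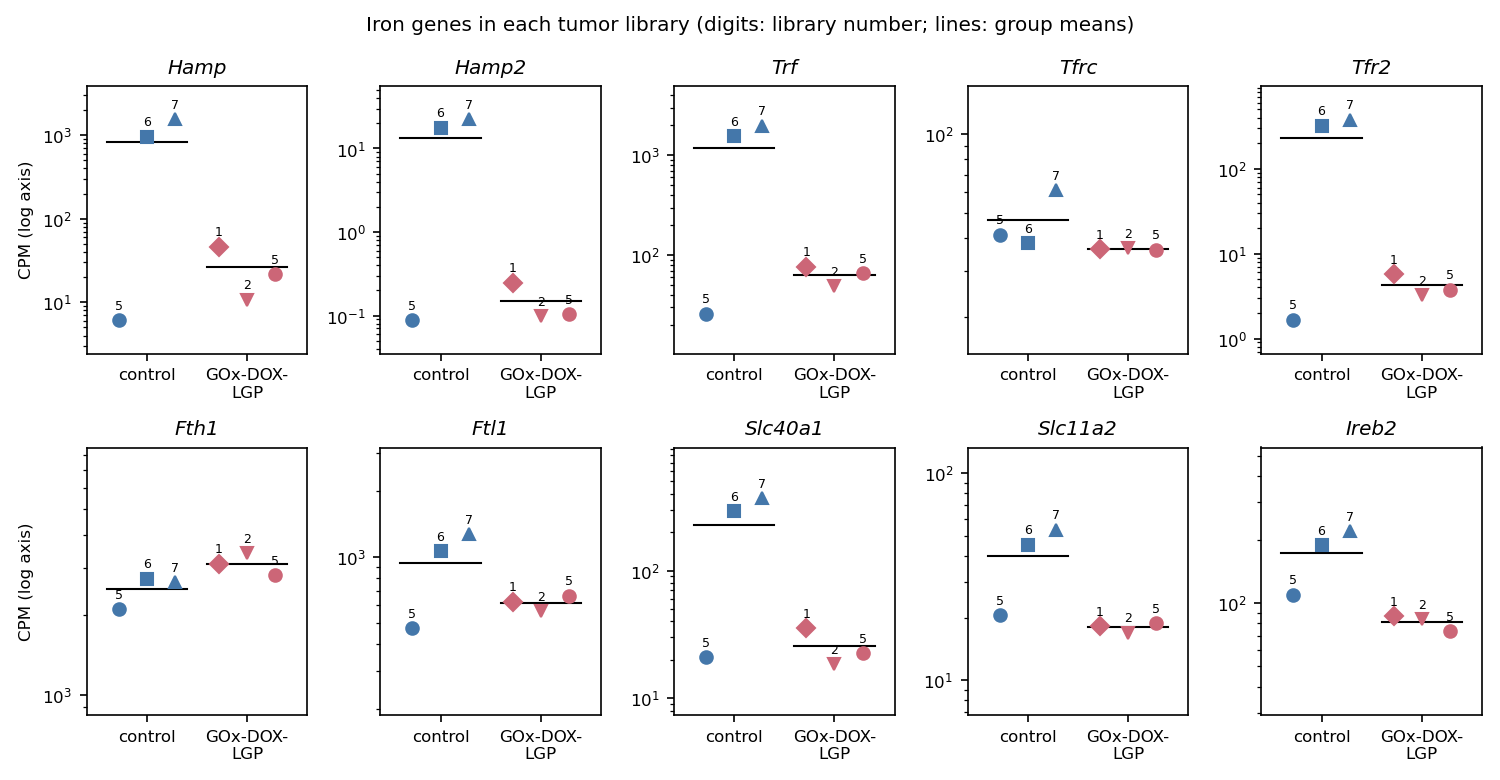
Level of each iron gene in the 6 tumor libraries, in CPM on a log axis whose range differs between panels. Blue marks are controls 5, 6 and 7, red marks are GOx-DOX-LGP tumors 1, 2 and 5, and black lines are group means. Control 5 lies with or below the treated tumors for Hamp, Hamp2, Trf and Tfr2, while Slc11a2 and Ireb2 are lower, and Fth1 higher, in each treated tumor than in each control, as is Tfrc (lower) under this TMM scaling but not under library totals.

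Per length of exon (RPKM), Hamp had the highest control mean at 2046 ± 1903 (SD, n = 3), followed by Fth1 at 719.6 ± 99.9, Ftl1 at 698 ± 310 and Trf at 358 ± 310. Much lower control means were seen for Tfr2 at 53.7 ± 46.7, Slc40a1 at 25.2 ± 20.2, Hamp2 at 22.9 ± 20.1, Ireb2 at 18.2 ± 5.95, Tfrc at 7.58 ± 2.0 and Slc11a2 at 6.25 ± 2.68. In treated tumors the ferritins came first, Fth1 at 898 ± 85.2 and Ftl1 at 461 ± 38.4, then Hamp at 64.0 ± 44.5, Trf at 19.1 ± 4.20, Ireb2 at 8.56 ± 0.717 and Tfrc at 5.87 ± 0.0396. The lowest treated means were those of Slc11a2 at 2.84 ± 0.152, Slc40a1 at 2.83 ± 0.968, Tfr2 at 0.974 ± 0.298 and Hamp2 at 0.257 ± 0.145. Of the 9 pairs of neighbours in this order, 7 among the controls and 1 in treated tumors (Slc11a2 with Slc40a1) differed by no more than the larger of their SDs. Hamp has only 410 annotated exon bases, which raises its value on this scale.

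Hamp encodes hepcidin, the hepatocyte hormone that closes ferroportin (chr7:30942368-30944032, minus strand, GRCm38). Its level was 6.10 CPM in control 5, 958 in control 6 and 1553 in control 7, and 46.4, 10.8 and 21.5 CPM in the GOx-DOX-LGP tumors (1, 2 and 5, in that order). All treated tumors sat between control 5 and the other controls, so the groups overlapped. Its log2 fold change was -5.0 with a standard error of 1.75 (edgeR adjusted p = 0.247), and a two-sided exact permutation test over the 6 libraries gave p = 0.4, where 0.1 is the smallest that 3 against 3 allows. DESeq2 gave an adjusted p of 0.00463 for a log2 fold change of -4.97. With the hepatocyte marker mean as a covariate in edgeR, the estimate turned to 0.36 ± 0.28 (SE). That mean, in log2 CPM, spanned 4.38 (control 5) to 12.9 (control 7), with every treated tumor between control 5 and control 6. Its slope thus rests mostly on control 5 against controls 6 and 7, and 3 residual degrees of freedom remain. A gene that follows the markers, as Hamp does, comes out near 0 by construction. For such genes, here and below, the estimate does not test for an effect of treatment apart from hepatocyte RNA. Without controls 6 and 7, the Hamp estimate was 2.12 ± 0.82 (SE). That choice was made after seeing the data, and control 5 is then assumed to vary like the treated libraries. Without control 5 the Hamp estimate was -5.55 ± 0.63 (SE; edgeR adjusted p = 0.000486).

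Hamp2 is a neighbouring hepcidin copy of the mouse (chr7:30922372-30924681), whose product is not known to control ferroportin as hepcidin does. It had 2, 208 and 208 counts in controls 5, 6 and 7, against 5, 2 and 2 counts in treated tumors 1, 2 and 5, which is near or below the floor in 4 libraries. Without the filter on low counts its log2 fold change was -6.30 ± 1.5 (SE; edgeR adjusted p = 0.184), a size that depends on the prior count at such levels, and without control 5 it was -6.95 ± 0.42 (adjusted p = 5.13e-05). Hamp shares 16.6% of its 50-base stretches with Hamp2, so part of the Hamp2 counts could belong to Hamp or the reverse.

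As a share of the counts of both hepcidin genes, Hamp2 took 1.42% in control 5 (95% Wilson interval 0.390 to 5.02), 1.81% in control 6 (1.58 to 2.07) and 1.42% in control 7 (1.24 to 1.63). In treated tumors 1, 2 and 5 it took 0.530% (0.227 to 1.24), 0.901% (0.247 to 3.22) and 0.481% (0.132 to 1.74). These intervals cover counting error only. The groups did not overlap in the log2 ratio of Hamp2 to Hamp, which differed by -1.19 between treated and control means (exact permutation p = 0.1, the smallest possible), but each treated share rests on 2 to 5 counts, and the intervals of treated tumors 2 and 5 reached the lowest control share.

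Transferrin (Trf, chr9:103204001-103230444, minus strand), the plasma carrier of iron made in hepatocytes, stood at 25.8, 1554 and 1985 CPM in controls 5, 6 and 7. The treated tumors had 76.2, 48.6 and 65.6 CPM. As with hepcidin, each treated tumor was above control 5 and below the other controls. Its log2 fold change was -4.23 ± 1.39 (SE; edgeR adjusted p = 0.247, DESeq2 adjusted p = 0.00511), and -0.000943 ± 0.30 with the hepatocyte covariate. Without control 5 it was -4.77 ± 0.31 (edgeR adjusted p = 6.06e-05), and without controls 6 and 7 it was 1.32 ± 0.30. An overlapping gene model on the same strand, Gm20425, shares 58.5% of the 50-base stretches of Trf and held 0 or 1 count per library, so the deposited counting assigned nearly all such reads to Trf or to neither.

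Transferrin receptor 2 (Tfr2, chr5:137569840-137587481, plus strand) is the hepatocyte and erythroid receptor that senses iron-loaded transferrin upstream of hepcidin. It measured 1.67, 321 and 377 CPM in controls 5, 6 and 7. The treated tumors measured 5.68, 3.23 and 3.75 CPM, again between control 5 and the other controls. Its log2 fold change of -5.78 ± 1.71 (SE) was the most negative among the tested members (edgeR adjusted p = 0.247, DESeq2 adjusted p = 0.000783). The estimate was -0.36 ± 0.28 with the hepatocyte covariate, 1.35 ± 0.52 without controls 6 and 7, and -6.33 ± 0.30 without control 5 (edgeR adjusted p = 4.60e-05).

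Against albumin, a product of the same cells, these genes spread much less. Hamp counts equalled 1.73%, 1.30% and 1.21% of Alb counts in controls 5, 6 and 7, against 2.45%, 1.47% and 2.03% in treated tumors 1, 2 and 5. Treated tumors 1 and 5 lay above every control and treated tumor 2 lay below control 5 alone. The mean log2 difference of 0.48 gave p = 0.2 in the exact permutation test, and it was 0.31 without treated tumor 1. Trf counts equalled 7.30%, 2.11% and 1.55% of Alb in the controls and 4.03%, 6.63% and 6.18% in treated tumors (log2 difference 0.93, exact permutation p = 0.4), with control 5 the highest of all. That difference was 1.6 without control 5, with no overlap and the smallest exact permutation p of 0.1 for 2 against 3, and 0.48 without control 7. Tfr2 counts equalled 0.473%, 0.434% and 0.294% for the controls, against 0.300%, 0.441% and 0.353% in treated tumors (log2 difference -0.12, exact permutation p = 0.8). From the lowest to the highest library, Hamp spanned 255-fold in CPM and 2.02-fold against albumin, Trf spanned 77.1-fold and 4.72-fold, and Tfr2 spanned 226-fold and 1.61-fold.

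**Figure D2:**
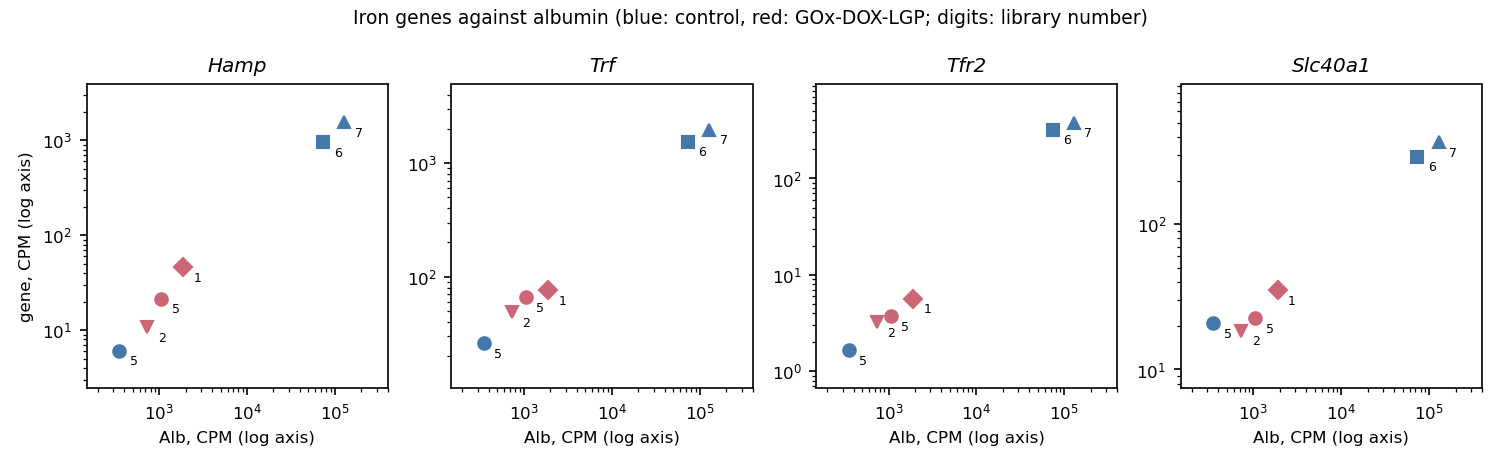
CPM of Hamp, Trf, Tfr2 and Slc40a1 (vertical, log axis) against CPM of Alb (horizontal, log axis) in each library, with controls in blue and GOx-DOX-LGP tumors in red. Controls 6 and 7 lie at the top right, and control 5 at the lowest Alb level, 353 CPM, beyond the treated tumors.

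Over all 6 libraries, the 5 genes whose centred log2 CPM lay closest to that of Hamp were Apoc3, Akr1c6, Serpina1a, Ttr and Serpina1e, at root mean square distances of 0.106 to 0.190 among 15365 genes compared. Apoc3 and Ttr, an apolipoprotein and the carrier of thyroid hormone and retinol, are themselves on the hepatocyte marker list. The points share the same 6 libraries, and the distance is a description.

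Transferrin receptor 1 (Tfrc, chr16:32608920-32632794, plus strand) takes up iron-loaded transferrin in nearly all dividing cells. Its level was 41.3, 38.3 and 61.1 CPM in controls 5, 6 and 7. In treated tumors 1, 2 and 5 it was 36.2, 36.6 and 36.2 CPM. The treated values were nearly identical and lay just under the lowest control. For Tfrc the log2 fold change was -0.37 ± 0.24 (SE; edgeR adjusted p = 0.424, exact permutation p = 0.1), and scaling by library totals alone turned it to 0.22, beside a shift of the all-gene median to 0.51 under that scaling. Tfrc thus stood lower than the median gene under both scalings. The estimate was -0.14 without control 7 and -0.17 without controls 6 and 7.

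The genes nearest to Tfrc across libraries were Trappc13, Zfp873, Immt, Ap3m1 and Rint1, at distances of 0.0569 to 0.0727. The log2 count ratio of Tfrc to Tfr2 was 4.61 in control 5, -3.06 in control 6 and -2.62 in control 7, and 2.66, 3.49 and 3.26 in the treated tumors. Control 5 was the most extreme on the Tfrc side, and the mean difference of 3.50 gave p = 0.4 in the exact permutation test. It was 5.98 without control 5 (exact permutation p = 0.1, the smallest for 2 against 3) and 2.14 without control 6.

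Slc11a2 encodes the divalent metal transporter DMT1, which carries iron out of endosomes after transferrin uptake (chr15:100387898-100425072, minus strand). It measured 20.6, 45.2 and 53.3 CPM in controls 5, 6 and 7. It measured 18.3, 17.0 and 18.9 CPM in treated tumors 1, 2 and 5, all below the lowest control, although control 5 exceeded the highest treated tumor by little. The log2 fold change was -1.13 ± 0.37 (SE; edgeR adjusted p = 0.247, DESeq2 adjusted p = 0.0939), the exact permutation p was 0.1, and with the hepatocyte covariate the estimate was -0.45 ± 0.20 (SE). Without control 5, edgeR gave -1.41 ± 0.18 (adjusted p = 0.000739). The estimate was -0.18 ± 0.23 without controls 6 and 7 and -0.43 under library totals.

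Ferritin stores iron in a shell built of heavy chains, which oxidize iron, and light chains, which help it to mineralize. The heavy chain gene Fth1 (chr19:9980598-9985098, plus strand) was at 2098, 2732 and 2658 CPM in controls 5, 6 and 7. It was at 3119, 3409 and 2818 CPM in treated tumors 1, 2 and 5, each above the highest control. For Fth1 the log2 fold change was 0.32 ± 0.45 (SE; edgeR adjusted p = 0.685, exact permutation p = 0.1), 0.49 ± 0.25 with the hepatocyte covariate, 0.58 ± 0.23 without controls 6 and 7, and 0.89 under library totals (all-gene median 0.51).

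The light chain gene Ftl1 (chr7:45457944-45459884, minus strand) was at 472, 1061 and 1273 CPM in the controls and 625, 563 and 666 CPM in treated tumors. The treated tumors lay between control 5 and the other controls. The log2 fold change was -0.60 ± 0.45 (SE; edgeR adjusted p = 0.487), and it turned to 0.11 under library totals, 0.12 with the hepatocyte covariate and 0.40 without controls 6 and 7. Under library totals the all-gene median was 0.51, so Ftl1 stayed below the median gene there. Without control 5 the estimate was -0.89 ± 0.25 (edgeR adjusted p = 0.0228), and without control 7 it was -0.32. Ftl1 shares 58.4% of its 50-base stretches with other genes, 47.3% with the pseudogene Ftl1-ps1, which held 107 to 135 counts per library, so its counts are uncertain to that extent.

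The log2 count ratio of Fth1 to Ftl1 was 2.15, 1.36 and 1.06 in controls 5, 6 and 7, against 2.32, 2.60 and 2.08 in treated tumors. Treated tumor 5 lay just under control 5, and the mean difference of 0.81 gave p = 0.2 in the exact permutation test. Both ferritin genes together took 0.318%, 0.287% and 0.223% of all counts in the controls and 0.463%, 0.481% and 0.431% in treated tumors. The share was higher in each treated tumor than in each control, a share that also depends on what all other genes took. The log2 count ratio of Fth1 to Tfrc was 5.67, 6.15 and 5.44 for the controls, against 6.43, 6.54 and 6.28 in treated tumors. Each treated tumor was above every control. That pair was chosen after its values were seen and carries no test.

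Slc40a1 encodes ferroportin, the iron exporter of hepatocytes, macrophages and gut (chr1:45908068-45926523, minus strand). It measured 20.9, 292 and 367 CPM in controls 5, 6 and 7, against 35.2, 18.5 and 22.6 CPM in treated tumors 1, 2 and 5. Control 5 lay inside the treated range. The log2 fold change was -3.15 ± 0.99 (SE; edgeR adjusted p = 0.247, DESeq2 adjusted p = 0.0115, exact permutation p = 0.3). With the hepatocyte covariate it was -0.57 ± 0.18 (SE; unadjusted p = 0.0142, adjusted p = 0.698, edgeR), and without controls 6 and 7 it was 0.30 ± 0.39 (SE). Without control 5 it was -3.66 ± 0.31 (edgeR adjusted p = 0.000117).

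Macrophages recycle iron from red cells and are the other main seat of ferroportin in liver. The summed level of 10 Kupffer cell and macrophage markers was 574, 865 and 646 CPM over the controls, against 555, 1311 and 774 CPM in treated tumors, led by C1qa and Mrc1, and overlapped, with 6 of the 10 markers higher, 4 lower and a median log2 fold change of 0.25. The 4 lower markers were Clec4f (-3.39), Cd5l (-2.42), Vsig4 (-1.99) and Timd4 (-1.45), while Cd68 (1.21) and C1qa (1.08) were among the 6 higher. Of the 4 lower markers, the Kupffer cell lectin Clec4f had the most negative fold change and was at 8.16, 96.8 and 101 CPM over the controls, against 12.5, 3.72 and 3.33 CPM in treated tumors. Against the pan-macrophage gene Cd68, the log2 count ratio of Slc40a1 was -1.67, 2.40 and 3.23 for the controls, against -1.40, -3.27 and -2.16 in treated tumors (mean difference -3.60, exact permutation p = 0.2). The part of these cells in the ferroportin result was not tested. The genes nearest to Slc40a1 were Slc25a42, Col27a1, Plekhb1, Chdh and Elovl5, at distances of 0.123 to 0.194.

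Ireb2 encodes iron regulatory protein 2, which binds the hairpins printed above and is degraded when iron is plentiful (chr9:54863789-54912530, plus strand). It was at 110, 189 and 219 CPM in controls 5, 6 and 7. It was at 86.3, 83.6 and 73.4 CPM in treated tumors 1, 2 and 5, each below every control. The log2 fold change was -1.09 ± 0.31 (SE; edgeR adjusted p = 0.247, DESeq2 adjusted p = 0.0400, exact permutation p = 0.1). The estimate was -0.62 ± 0.18 (SE) with the hepatocyte covariate (edgeR unadjusted p = 0.0101, adjusted p = 0.649), -0.42 ± 0.19 without controls 6 and 7 and -0.43 under library totals. In the covariate fit 946 of 15374 genes reached an unadjusted p under 0.05, and 0 were called. The sign was negative in each of these fits for Ireb2 and also for Slc11a2. Without control 5, edgeR gave Ireb2 an estimate of -1.30 ± 0.18 (adjusted p = 0.00123).

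**Figure D3:**
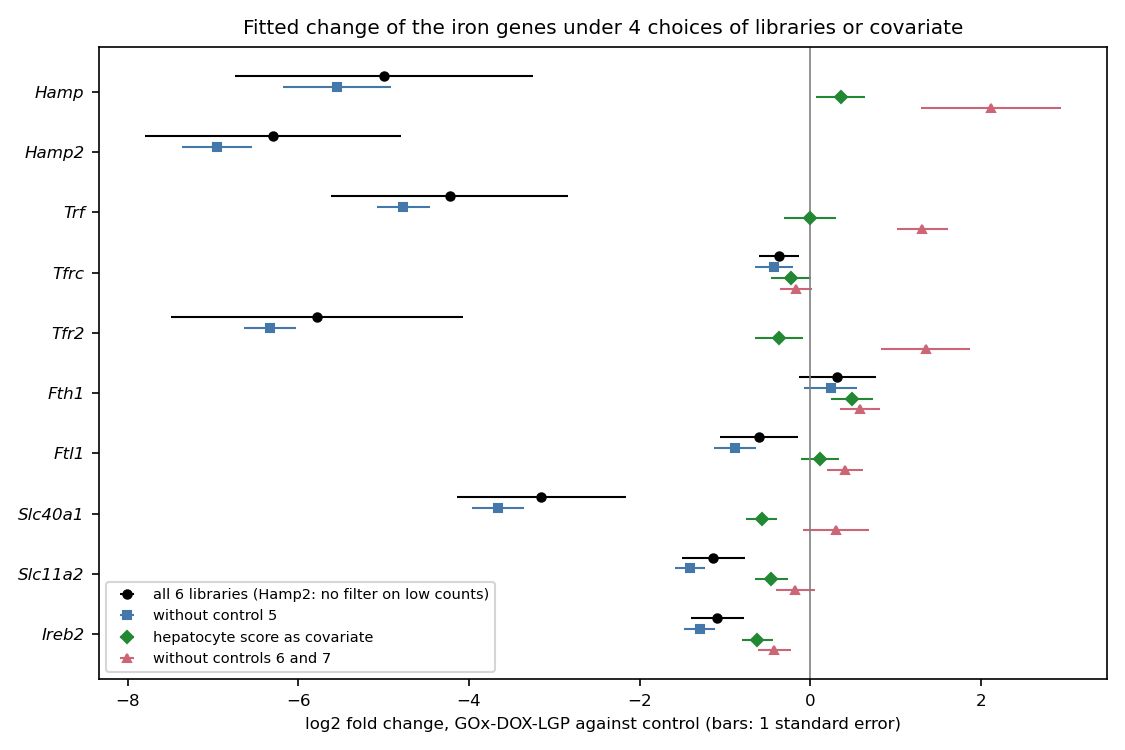
Fitted log2 fold change of each iron gene, GOx-DOX-LGP against control, with bars of 1 standard error. Black circles use all 6 libraries, blue squares leave out control 5, green diamonds add the hepatocyte marker mean as a covariate, and red triangles leave out controls 6 and 7. Hamp, Trf and Tfr2 run from below -4 with all libraries to above 1 without controls 6 and 7, while Ireb2 stays between -1.30 and -0.42 and Slc11a2 between -1.41 and -0.18. Hamp2 has only the unfiltered fit and the fit without control 5.

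How many members were called turned on control 5 and on the test. DESeq2 called 6 of 10 members, all lower (Hamp, Hamp2, Trf, Tfr2, Slc40a1 and Ireb2), against 9.85% of all genes called lower. Without control 5, edgeR called 8 of 10 members, all lower, against 25.5% of all genes called lower and 22.2% called higher. The members called there were Hamp, Hamp2, Trf, Tfr2, Ftl1, Slc40a1, Slc11a2 and Ireb2. Also without control 5, the groups did not overlap for 1 member with higher values and 9 with lower values in treated tumors, against 37.2% and 34.7% of all genes. Control 5 had the lowest level of all 6 libraries for Hamp, Trf, Tfr2, Fth1 and Ftl1, while Hamp2 had 2 counts there, as in treated tumors 2 and 5.

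A further 71 genes of iron metabolism, grouped by role, gave the setting for these members. Of these, 68 passed the filter, 0 were called by edgeR, and 21 were lower and 0 higher at an unadjusted p under 0.05, against 14.6% and 2.87% of all genes. Their median log2 fold change was -0.28, and -0.06 with the hepatocyte covariate. DESeq2 called 11 of them, all lower, against 9.85% of all genes called lower. Without control 5, edgeR called 41 of them, 12 higher and 29 lower, against 22.2% and 25.5% of all genes. The groups did not overlap for 5 of the 68, all lower in treated tumors, a share under the 8.31% of all genes: the activin receptor Acvr2a, the ferritin receptor Ncoa4, the transporters Slc39a14 and Slc22a17 and the exporter Abcg2, of which all but Ncoa4 are named because of their values.

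Among 20 regulators of hepcidin, 5 were lower at an unadjusted p under 0.05 and the median was -0.03. The share of all genes lower at that level, 14.6%, serves for this list and for each that follows. No list was tested against that share. Without control 5, edgeR called 6 of the 20 regulators higher and 7 lower, against 22.2% and 25.5% of all genes. The largest log2 fold changes, here and for the lists that follow with their SE, were those of Tmprss6, the protease that restrains hepcidin (-5.61 ± 1.68), Hjv, the hemojuvelin coreceptor (-5.46 ± 1.71), and Bmp6, the iron-induced ligand of that receptor (-3.65 ± 1.19). In control 5 Tmprss6 stood at 2.37 CPM, against 313 and 479 CPM in the other controls and 3.49 to 8.11 CPM in treated tumors. Like Hamp and Tfr2, Tmprss6 and Hjv were thus lowest in control 5, and their covariate estimates were -0.42 and -0.07.

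Of 6 iron regulatory proteins and their controllers, 2 were lower at the unadjusted level (median -0.41). These were Epas1, the hypoxia factor HIF-2 alpha (-2.79 ± 0.79), and Aco1, iron regulatory protein 1 (-1.94 ± 0.64), with Skp1a next at -0.53 ± 0.33. Aco1 was at 46.9, 193 and 308 CPM in controls 5, 6 and 7, against 49.2, 47.5 and 46.4 CPM in treated tumors. Unlike Ireb2, Aco1 had control 5 within the treated range.

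Of 6 genes of ferritin use and iron chaperoning, 5 passed the filter and 1 was lower at the unadjusted level (median -0.05). That gene was Ncoa4, the receptor that delivers ferritin to lysosomes, at 61.7, 77.0 and 95.9 CPM over the controls, against 45.0, 53.3 and 28.4 CPM in treated tumors (-0.89 ± 0.31, edgeR adjusted p = 0.247). Each treated tumor was below every control. Pcbp1, a chaperone that loads iron into ferritin, gave -0.29 ± 0.26, and Bola2 gave 0.20 ± 0.30.

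Of 15 further transporters, reductases and oxidases, 13 passed the filter and 3 were lower at the unadjusted level (median -0.27). Slc39a8, a metal importer, gave -2.99 ± 0.86, Steap4, a metalloreductase, gave -2.72 ± 1.02, and Ltf, lactoferrin of neutrophil granules, gave 2.39 ± 1.17 (edgeR adjusted p = 0.339). Ltf had only 34, 3 and 1 counts in controls 5, 6 and 7, against 45, 14 and 151 in treated tumors 1, 2 and 5. Its estimate ran from 1.17 to 4.23 on leaving out each library. In the 12 genes of heme and hemoglobin clearance, 4 were lower at the unadjusted level (median -0.80), led by the plasma scavengers Hpx (-4.56 ± 1.61) and Hp (-4.12 ± 1.48) and the transporter Flvcr2 (-3.27 ± 1.18). Hpx and Hp are hepatocyte products, and with the hepatocyte covariate they came to 0.50 and 0.48.

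In the 12 genes of mitochondrial iron use, 6 were lower at the unadjusted level (median -0.83). Among them were Fech, which inserts iron into heme (-2.29 ± 0.76), and the transporter Abcb10 (-1.23 ± 0.47). Erythroid markers also differed between libraries, with a summed level of 13.2, 409 and 429 CPM in controls 5, 6 and 7, against 24.4, 13.9 and 42.4 CPM in treated tumors, led by Hbb-bs and Alas2 (9 of the 10 listed markers were found and 4 passed the filter). Hemoglobin reads thus followed controls 6 and 7 as hepatocyte reads did, and their part in the heme results was not tested.

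**Figure D4:**
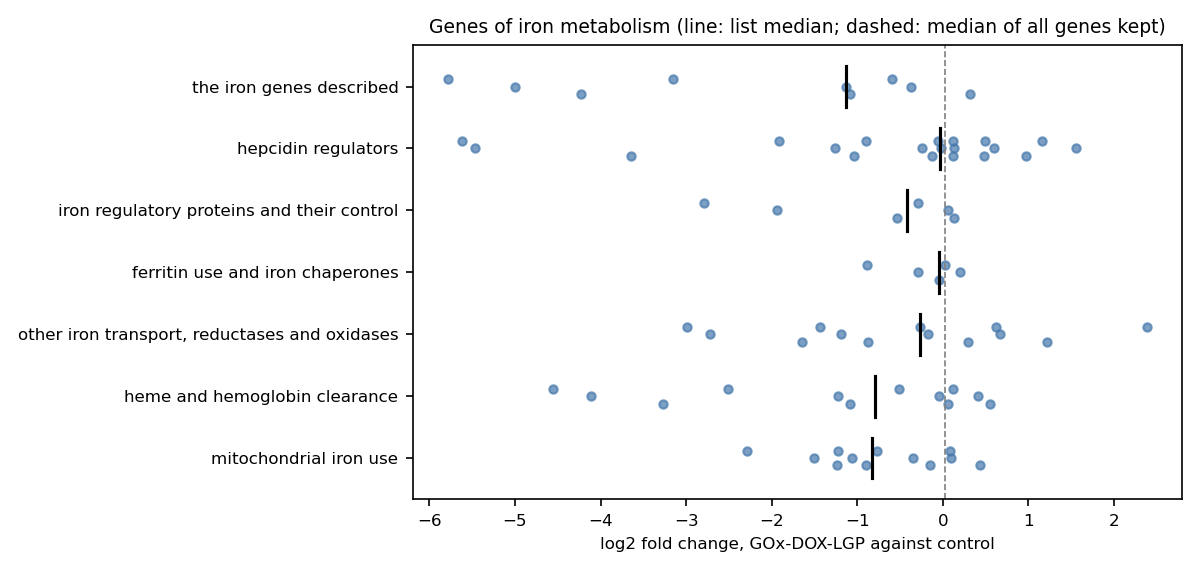
Log2 fold change, GOx-DOX-LGP against control, of each iron gene that passed the filter (points), by list, with vertical bars at list medians and a dashed line at the all-gene median of 0.02. The 9 tested members reach from -5.78 to 0.32, and the mitochondrial and heme lists have medians of -0.83 and -0.80.

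Markers of other cell types are given beside the iron genes. Summed T cell markers, led by Cd8a and Cd3g, were 101, 61.1 and 33.8 CPM in controls 5, 6 and 7, against 137, 143 and 205 CPM in treated tumors, without overlap, and all 8 markers had positive log2 fold changes. Summed sinusoidal endothelial markers, led by Fcgr2b and Kdr, were 311, 544 and 573 CPM over the controls, against 278, 498 and 330 CPM in treated tumors. These sums overlapped, yet 7 of the 8 markers had negative log2 fold changes (median -1.71), and only Fcgr2b had a positive one (0.81). The part of T cell and endothelial markers in the iron gene results was not tested.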

How the data were processed

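RNA of 6 HCA-1 tumors was sequenced from KAPA mRNA HyperPrep libraries. The authors deposited raw counts per gene and a signal table of the same counts divided by size factors. The submitters' processing notes name Trimmomatic 0.38, HISAT2 2.1.0 and featureCounts 2.0.0, while the study's methods name TopHat and HTSeq. Genome build, annotation release and use of strand are not given in the sources used here, so overlapping antisense reads cannot be told apart.

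Groups followed the labels. The raw counts were tested in edgeR 4.0.16 (R 4.3.3; TMM, default filter on low counts, adjusted p under 0.05), with DESeq2 1.42.0 and other settings as alternatives, after both fits were checked on simulated data. Count ratios used 0.5 added to each count and an exact two-sided permutation test. Lengths, positions, hairpins and shared 50-base stretches came from GENCODE M21 on GRCm38, in which all 55536 gene identifiers were found. RPKM divides CPM by exon length. The depth of 15529940 to 18401178 counts sets the 3-count floor at 0.132 to 0.323 CPM.

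Named genes were every member, the 3 with the largest absolute log2 fold change of each iron list, the 2 most abundant of each marker list with Alb and Cd68, and the 5 genes nearest to Hamp, Tfrc and Slc40a1. One gene that this rule names is not reported here. Members and lists were chosen with earlier results of these data known. Clec4f, Cd5l, Vsig4, Timd4, Afp and Gpc3 were named after their values were seen.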

Additional observations from a re-analysis of the deposited data

How the results depend on the processing

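The calls rested on the test and on control 5. edgeR called 0 genes where DESeq2 called 1739 of all genes, 6 of the members and 11 of the other iron genes. Leaving out each library in turn moved the edgeR calls over 0 to 7745 genes, 0 to 8 members and 0 to 41 other iron genes, and the members without overlap over 4 to 10, and every upper value came without control 5. The log2 difference of Tfr2 to Alb ranged from -0.33 to 0.02 on leaving out each library, and was 0.0208 without control 5 and 0.0129 without GOx-DOX-LGP 1.

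Signs turned for Hamp to 0.36 and for Ftl1 to 0.12 with the hepatocyte covariate. Hamp follows the markers in that covariate, so its turn does not test for an effect of treatment apart from hepatocyte RNA. Signs also turned under library totals, for Tfrc to 0.22 and for Ftl1 to 0.11. Under library totals the all-gene median was itself 0.51, above both Tfrc and Ftl1. Leaving out controls 6 and 7, chosen after seeing the data, gave 2.12 for Hamp, 1.32 for Trf, 1.35 for Tfr2, 0.40 for Ftl1 and 0.30 for Slc40a1, and control 5 was then assumed to vary like the treated libraries. The cause was not tested. Size factors of DESeq2 in edgeR changed no member's sign. At the depth used, Hamp2 was near or below the floor in 4 libraries, which limits every statement on it.

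No paired analysis was possible because the groups share only the number 5.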
